A study of Mus musculus with 2 samples.

Results

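Scx, Mkx and Tnmd, 3 genes used to recognise tendon cells, were followed through the stromal cells of the Achilles tendon enthesis, the site where the tendon joins bone, in SKG mice. SKG mice carry a mutation of Zap70 and are used as a model of inflammatory arthritis and enthesitis. The members were taken by symbol, 3 of 32285 genes listed in both libraries, and all 3 were detected in both. The tail suspension (TS) library came from hind limbs kept off the ground, and the non-tail suspension (NTS) library from mice that were not suspended. Tissue of both groups was digested with collagenase, red cells were lysed and dead cells depleted before capture in droplets of the 10x Genomics system. There is 1 library in each group, and the labels give neither the age nor the number of animals behind it. No difference below therefore has a replicate check or a test, and each 95% interval covers the error of counting only.

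Scx (scleraxis) is a basic helix-loop-helix transcription factor that marks tendon progenitors, and in mouse embryos cells with both Scx and Sox9 contribute to the enthesis. Mkx (mohawk) is a homeobox transcription factor whose loss in mice leaves tendons with less type I collagen. Tnmd (tenomodulin) is a transmembrane glycoprotein of maturing tenocytes, and its expression in mouse tendon depends on Scx.

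The 2 libraries held 15545 barcodes in TS and 11430 in NTS, with a median of 7823 UMIs per barcode in TS and 4482 in NTS (UMIs are unique molecular identifiers, each standing for 1 captured RNA molecule). After filters on genes, mitochondrial share and doublets, 14016 TS and 10819 NTS cells stayed, of which 6514 in TS and 1875 in NTS fell in stromal clusters (Col1a1 and Dcn high, Ptprc low). Stromal cells were clustered with the 3 genes left out, and clusters were named only by marker genes other than these 3. The tenocyte-like class (Thbs4, Comp, Fmod, Cpxm2, Kera and others) held 595 TS and 813 NTS cells, but different clusters made up most of it. In TS, 565 of the 595 cells were in cluster 3, led by Clu, Chad, Chil1, Fmod and Wif1. In NTS, 376 cells were in cluster 14, led by Fmod, C1qtnf3 and Col11a1, and 391 in cluster 10, where the interferon-induced genes Cxcl9, Iigp1 and Cxcl10 stood among the leading genes. Cluster 10 took its name from Sfrp2 and Cpxm2 among its 10 leading genes, but its NTS cells had more of the 9 adventitial fibroblast markers (7114 CPM, UMIs of the gene per 1e+06 UMIs of the cells summed; Pi16 alone 4796 CPM) than of the 14 tenocyte markers (6280 CPM, against 5884 CPM over all NTS stromal cells). All markers of both lists were detected there. For the class, the ratios, shares of cells with a UMI and joint detection of the 3 genes are therefore also given without cluster 10. That left 593 TS and 422 NTS cells, a choice made after seeing the data. Other values of the class include cluster 10 unless stated. The median mitochondrial share of kept cells was 3.102% in TS and 1.46% in NTS, and the libraries shared 47 barcode sequences. Fewer cells of a type and less RNA per cell cannot be told apart in sums over all stromal cells.

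On the GRCm38 build with the GENCODE M21 annotation, Scx (ENSMUSG00000034161) lies at chr15:76457452-76459458 on the plus strand, wholly inside Bop1, a ribosome biogenesis gene on the opposite strand, with no overlap between their exons. Whether counting used the strand is not given in the sources used here. Bop1 stood at 20.7 CPM in TS and 24.9 CPM in NTS stromal cells, and at 21.8 CPM in TS and 25.8 CPM in NTS tenocyte-like cells. Whether reads of Bop1 add to the Scx counts was not tested. Mkx (ENSMUSG00000061013) lies at chr18:6934518-7004780 on the minus strand, where 2104 bases overlap the transcript AC148004.2 on the same strand, and Tnmd (ENSMUSG00000031250) at chrX:133850980-133865577 on the plus strand.

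Summed over all stromal cells, the 3 genes were lower in TS. Scx was at 14.8 CPM in TS (1373 UMIs) and 27.8 CPM in NTS (1319 UMIs), a log2 ratio of -0.91 (-1.02 to -0.80). Tnmd was at 80.2 CPM in TS (7452 UMIs) and 113.6 CPM in NTS (5394 UMIs), a log2 ratio of -0.50 (-0.55 to -0.45). Mkx was at 4.75 CPM in TS (441 UMIs) and 5.81 CPM in NTS (276 UMIs), a log2 ratio of -0.29 (-0.51 to -0.07). None of the 3 was lower in TS by 2-fold, as 5.32% of the 16270 genes with at least 20 UMIs were, while 11.4% were higher by 2-fold, and the median of all those genes was 0.09. The direction of Mkx depended on how cells were weighted: each cell counted equally gave 0.52, and thinning each cell to 5000 UMIs gave 0.045.

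Within the tenocyte-like class Mkx and Tnmd were higher in TS, and the direction of Scx turned on whether cluster 10 was counted. Mkx was at 60.5 CPM in TS (275 UMIs) and 11.4 CPM in NTS (232 UMIs), a log2 ratio of 2.41 (2.16 to 2.67). Tnmd was at 487 CPM in TS (2211 UMIs) and 228 CPM in NTS (4661 UMIs), a log2 ratio of 1.09 (1.02 to 1.17). Scx was at 55.7 CPM in TS (253 UMIs) and 39.9 CPM in NTS (815 UMIs), a log2 ratio of 0.48 (0.27 to 0.69). Without cluster 10, Scx was lower in TS, at 55.9 CPM in TS (253 UMIs) and 67.9 CPM in NTS (714 UMIs), a log2 ratio of -0.28 (-0.49 to -0.07). Mkx was then at 60.8 CPM in TS and 18.4 CPM in NTS (1.72, 1.45 to 1.99), and Tnmd at 487 CPM in TS and 357 CPM in NTS (0.45, 0.37 to 0.52). Mkx and Tnmd passed 2-fold in a class where 10.2% of 12916 genes were higher in TS by that size and 11.8% were lower. Without cluster 10 only Mkx passed it, where 9.44% of 12124 genes were higher by 2-fold and 10.2% lower. A score of marker genes in each cell, in place of clusters, placed 508 TS and 487 NTS cells in the class. Their log2 ratios were -0.0058 for Scx, 1.59 for Mkx and 1.05 for Tnmd. That score has no natural break, since 14.8% of stromal cells lay within 0.1 of its threshold. Markers of other cell types also moved in the class. The mineralising enthesis markers summed to 6752 CPM in TS (10 of 12 detected, Ihh and Col9a1 at 0) and 425 CPM in NTS (11 of 12, Sp7 at 0), or without cluster 10 to 6782 CPM in TS and 758 CPM in NTS. Prg4 (lubricin), a sheath and lining gene, was at 19055 CPM in TS and 766 CPM in NTS. All 9 sheath or lining markers together were at 20047 CPM in TS and 1758 CPM in NTS, and without Prg4 at 992 CPM in both. Over all stromal cells Prg4 was at 31792 CPM in TS and 5721 CPM in NTS. The 9 adventitial markers, all detected, summed to 1366 CPM in TS and 4627 CPM in NTS, or without cluster 10 to 1347 CPM in TS and 2282 CPM in NTS. Their part in the ratios was not tested.

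The class made up a different part of each library, by an amount that depended on how it was drawn. Tenocyte-like cells were 9.13% of TS and 43.4% of NTS stromal cells. They held 62.4% of Mkx UMIs in TS and 84.1% in NTS. For Scx these shares were 18.4% in TS and 61.8% in NTS, and for Tnmd 29.7% in TS and 86.4% in NTS. With the score, the class was 7.80% of TS and 25.97% of NTS stromal cells, and it held 58.5% of Mkx UMIs in TS and 76.1% in NTS, 21.3% of Scx UMIs in TS and 54.7% in NTS, and 48.5% of Tnmd UMIs in TS and 79.2% in NTS. Without cluster 10 it was 9.10% of TS and 22.5% of NTS stromal cells. In TS most Scx and Tnmd UMIs lay outside the class under each of these. Outside it, Scx was at 12.7 CPM in TS and 18.6 CPM in NTS (log2 ratio -0.56, -0.71 to -0.40), Tnmd at 59.3 CPM in TS and 27.1 CPM in NTS (1.13, 1.02 to 1.24), and Mkx at 1.88 CPM in TS and 1.63 CPM in NTS (0.21, -0.28 to 0.72).

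**Figure D1:**
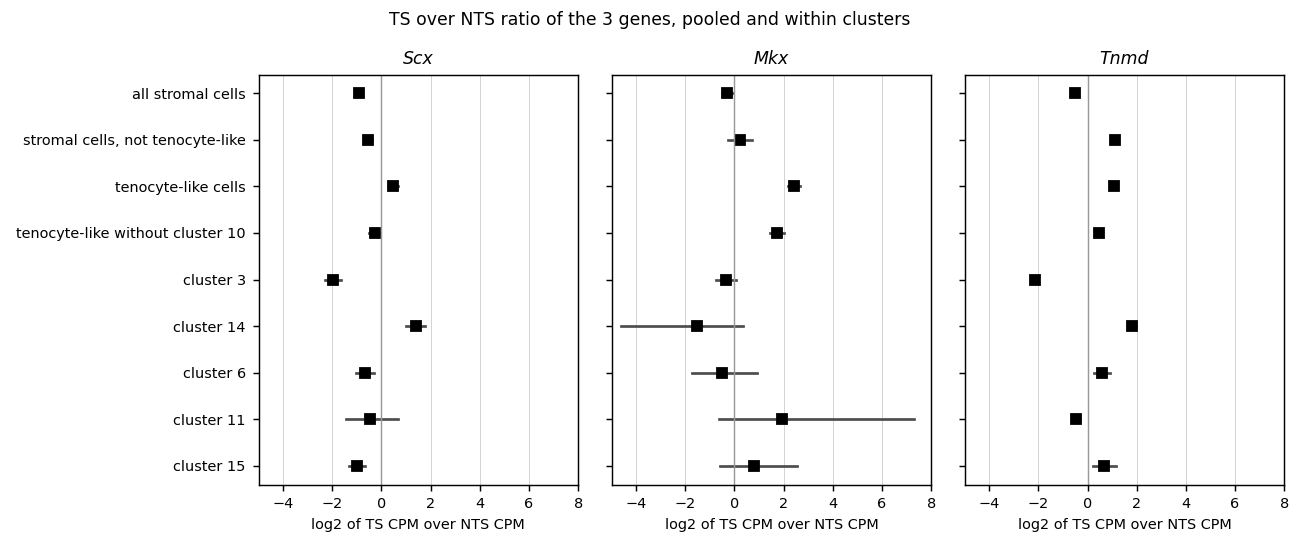
Log2 of the TS CPM over the NTS CPM (horizontal axis) of Scx, Mkx and Tnmd, for all stromal cells, the cells outside and inside the tenocyte-like class, the class without cluster 10, and 5 clusters with at least 20 cells in both libraries. Squares are ratios and lines are 95% counting intervals. Scx and Tnmd stand left of 0 in all stromal cells and in cluster 3, and right of 0 in tenocyte-like cells and in cluster 14; without cluster 10, Scx of tenocyte-like cells stands left of 0.

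Inside single clusters the direction turned again. In cluster 3, with 565 TS and 46 NTS cells, Scx was at 45.3 CPM in TS (185 UMIs) and 177 CPM in NTS (134 UMIs), a log2 ratio of -1.97 (-2.30 to -1.64). Tnmd in that cluster was at 452 CPM in TS (1848 UMIs) and 1965 CPM in NTS (1485 UMIs), a log2 ratio of -2.12 (-2.22 to -2.02). Mkx was not separable at this depth, at 66.8 CPM in TS (273 UMIs) and 84.7 CPM in NTS (64 UMIs), with an interval that held 0 (-0.34, -0.74 to 0.07). Among 10021 genes measured in cluster 3, 5.76% were lower in TS by 2-fold and 13.2% higher, with a median of 0.15. Median depth there was 5759 UMIs in TS and 15640 in NTS, and equal depth kept the order for Scx and Tnmd: at 5000 UMIs per cell, Scx was found in 64 of 324 TS cells (19.8%, 15.6 to 24.5%) and in 22 of 41 NTS cells (53.7%, 37.4 to 69.3%). Tnmd was found in 49.7% of those TS cells (44.1 to 55.3%) and 82.9% of the NTS cells (67.9 to 92.8%), and Mkx in 26.9% of TS (22.1 to 32.0%) and 24.4% of NTS (12.4 to 40.3%).

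In cluster 14, with 28 TS and 376 NTS cells, Scx and Tnmd were higher in TS. Scx was at 155 CPM in TS (68 UMIs) and 59.4 CPM in NTS (580 UMIs), a log2 ratio of 1.39 (1.003 to 1.75). Tnmd was at 812 CPM in TS (355 UMIs) and 233 CPM in NTS (2270 UMIs), a log2 ratio of 1.80 (1.64 to 1.97). Mkx had 2 UMIs in TS and 130 in NTS, too few to give a direction (-1.54, -4.60 to 0.34). A few cells carried these TS values: the highest single cell held 18 of the 68 Scx UMIs and 79 of the 355 Tnmd UMIs. Cluster 10 had 2 TS cells, so it was not compared; its 391 NTS cells had Scx at 10.2 CPM, Mkx at 3.83 CPM and Tnmd at 91.4 CPM, each below the NTS level of cluster 14 with no overlap of the intervals.

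Sums of marker genes also differed between the libraries in this cluster and, for some lists, beyond it. In cluster 3 the 14 tenocyte markers, all detected, summed to 15981 CPM in TS and 35698 CPM in NTS. The mineralising enthesis markers summed to 7465 CPM in TS, where 10 of 12 were detected and Ihh and Col9a1 were at 0, and to 3722 CPM in NTS, where 8 of 12 were detected and Bglap, Alpl, Ihh and Sp7 were at 0. The 9 sheath or lining markers summed to 21964 CPM in TS and 5344 CPM in NTS; 7 of them were detected in NTS, with Clic5 and Tspan15 at 0. Prg4 made up most of both sums, and without it they were 1021 CPM in TS and 943 CPM in NTS. Neutrophil markers summed to 288 CPM in TS, with all 6 detected, and to 210 CPM in NTS, with 4 of 6 detected and Cxcr2 and Mmp8 at 0. Erythroid markers summed to 136 CPM in TS, with all 4 detected, and to 2.65 CPM in NTS, with Hba-a2 and Alas2 at 0. This was not particular to cluster 3, since over all stromal cells they summed to 168 CPM in TS and 2.15 CPM in NTS. Osteoclast markers, nearly all Ctsk, summed to 304 CPM in TS and 1167 CPM in NTS, with 4 of 5 detected in both and Oscar at 0. The part of these in the lower Scx and Tnmd was not tested.

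A finer clustering divided cluster 3 into cells led by bone and cartilage genes and cells led by a tendon matrix gene. Its cells went mainly to 3 finer clusters, of which finer cluster 5 was led by Ibsp (bone sialoprotein) and Col2a1 (type II collagen), and finer clusters 28 and 32 by Fmod (fibromodulin). In finer cluster 5, with 114 TS and 16 NTS cells, Mkx was at 29.5 CPM in TS, Scx at 17.4 CPM and Tnmd at 70.3 CPM. In finer cluster 28, with 433 TS and 19 NTS cells, the TS levels were 86.4 CPM for Mkx, 56.0 CPM for Scx and 554 CPM for Tnmd. The TS cells of finer cluster 5 thus had lower levels of each gene than those of finer cluster 28, with intervals that did not overlap. Of finer cluster 5, 112 TS cells but only 4 NTS cells came from cluster 3, and 11 of its NTS cells came from cluster 4, so the libraries were not compared in it. All 19 NTS cells and 421 of 433 TS cells of finer cluster 28 came from cluster 3, as did 31 of 36 TS and 23 of 27 NTS cells of finer cluster 32. Tnmd was lower in TS in both, with log2 ratios of -1.97 (-2.11 to -1.83) in 28 and -1.31 (-1.49 to -1.13) in 32, and so was Scx, with -1.40 (-1.92 to -0.85) in 28 and -1.74 (-2.45 to -1.09) in 32. Mkx gave -0.17 (-0.77 to 0.49) in 28 and -2.98 (-4.92 to -1.51) in 32 from 4 TS and 40 NTS UMIs.

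Away from the tenocyte-like class the order of clusters in TS differed between the 3 genes. In TS, Mkx stayed close to cluster 3. Among the 17 clusters with at least 50 TS cells its level was 66.8 CPM there and 5.88 CPM in the next, cluster 11, with no overlap of intervals. Of all stromal Mkx UMIs of TS, 61.9% lay in cluster 3. In NTS, cluster 14 held 130 of the 276 stromal Mkx UMIs, cluster 3 held 64 and cluster 10 held 38. Tnmd was also high in fibroblast clusters 19, 11 and 13 of TS. For Mkx these clusters came next after cluster 3 in TS, at 5.05, 5.88 and 4.65 CPM, with intervals that overlapped lower clusters. The TS level of Tnmd in cluster 19 (56 cells, led by Igfbp2, Crabp1 and Lrrc15) was 440.3 CPM, not separable from the 452 CPM of cluster 3. Scx there had 3 UMIs and Mkx 4. Cluster 11, led by Igfbp3, Myoc and Sfrp4, held 24.2% of the stromal Tnmd UMIs of TS, at 354 CPM in TS and 493 CPM in NTS (log2 ratio -0.48, -0.65 to -0.30). In that cluster Scx was at 11.2 CPM in TS and 15.2 CPM in NTS. Cluster 13 (Galnt15, Angptl7) added 16.05% of the Tnmd UMIs of TS at 179.5 CPM.

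Scx was seen in sheath, proliferating and C1qtnf3-rich cells. In TS its levels in clusters 11 and 13 (11.2 and 10.7 CPM) overlapped those of sheath cluster 8 and proliferating cluster 15 (10.6 and 13.7 CPM). Cluster 6 (C1qtnf3, Aqp1, Tnn) had Scx at 38.5 CPM in TS and 61.7 CPM in NTS (log2 ratio -0.68, -1.02 to -0.32), while Tnmd in the same cells was at 98.6 CPM in TS and 65.9 CPM in NTS (0.58, 0.27 to 0.90). In proliferating stromal cells (cluster 15, led by Top2a) Scx was at 13.7 CPM in TS and 27.5 CPM in NTS (-1.002, -1.33 to -0.67) and Tnmd at 16.5 CPM in TS and 10.4 CPM in NTS (0.66, 0.21 to 1.15). Scx and Tnmd thus lay on opposite sides of 0 in both clusters. In sheath or lining fibroblast-like cluster 7, whose 691 TS cells had 17.6% of the stromal Scx UMIs of TS, Scx was at 16.7 CPM in TS and 15.9 CPM in NTS (0.07, -0.64 to 0.87), while Tnmd was at 1.79 CPM in TS and at 0 UMIs in the 44 NTS cells. Over the clusters with at least 20 cells in both libraries and a UMI of the gene in each, Scx was lower in TS in 4 of 9 (clusters 3, 6, 15 and 17), higher in 1 (cluster 14) and not separable in 4. Tnmd was lower in 4 of 9 (clusters 3, 11, 16 and 20), higher in 3 (clusters 6, 14 and 15) and not separable in 2. Mkx was separable in none of 6. Cluster 0 was outside the count for Tnmd, with 407 UMIs in 685 TS cells (38.0 CPM) and 0 in 22 NTS cells. The interval of its log2 ratio began at 1.89, above 0.

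**Figure D2:**
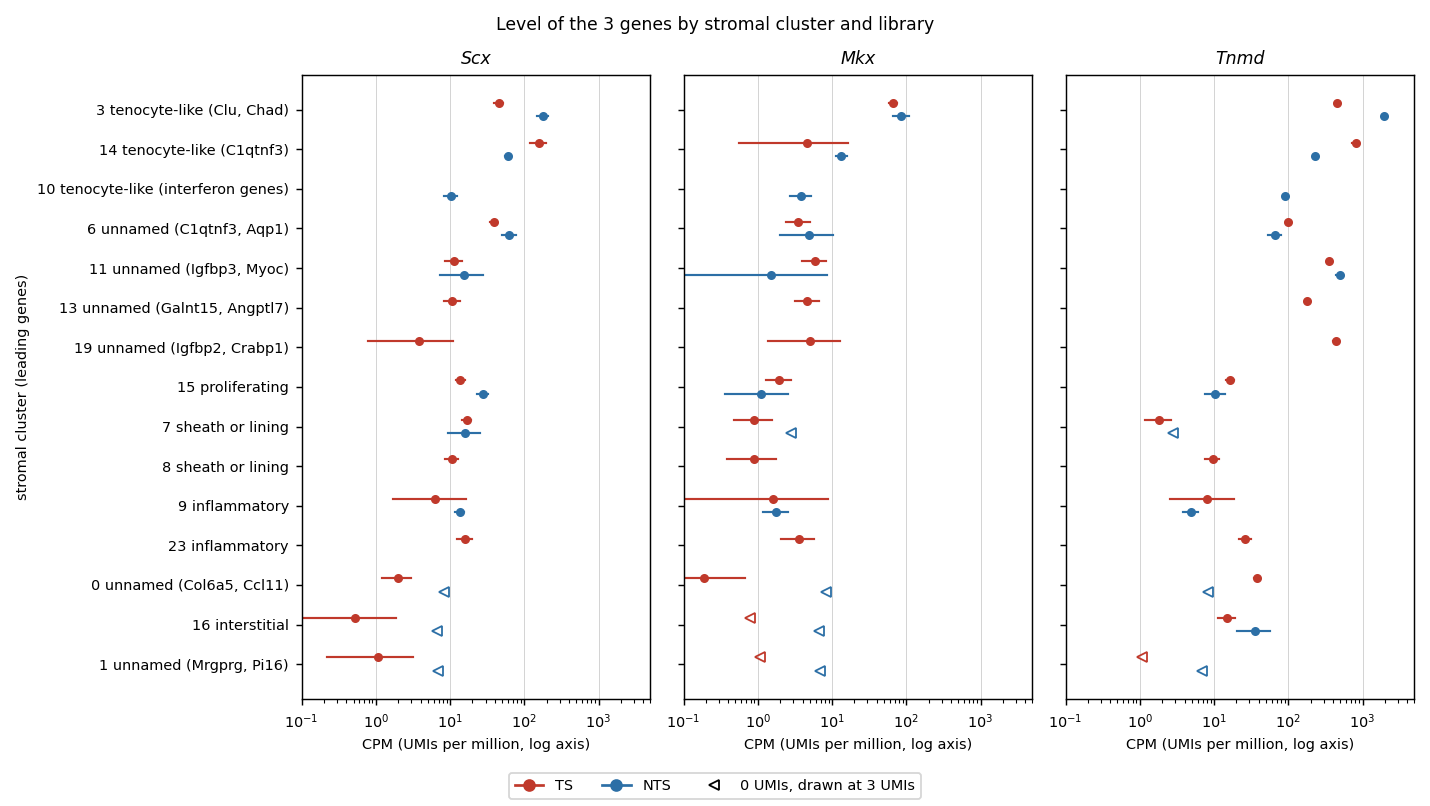
Level of Scx, Mkx and Tnmd in CPM (log axis) in 15 stromal clusters, with TS above NTS in each row; points are summed levels, lines 95% Poisson intervals, and open triangles mark 0 UMIs at the level 3 UMIs would give. Groups with fewer than 20 cells are not drawn. Mkx stands far above its other levels in cluster 3 in both libraries, and Tnmd stays high in TS clusters 11, 13 and 19.

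The shares of cells with a UMI need equal depth, because tenocyte-like cells had a median of 5944 UMIs in TS and 24084 in NTS. Without thinning, Scx was seen in 22.9% of TS and 36.2% of NTS tenocyte-like cells, and at 5000 UMIs per cell in 20.3% of 350 TS cells (16.2 to 24.9%) and 14.3% of 799 NTS cells (11.9 to 16.9%). Thinning left out 245 TS and 14 NTS cells. Without cluster 10, Scx at this depth was in 20.4% of 348 TS cells and 24.2% of 413 NTS cells, so its order turned here too. Mkx was seen in 24.9% of the thinned TS cells (20.4 to 29.7%) and 5.26% of the NTS cells (3.81 to 7.04%), and Tnmd in 175 of the 350 TS cells (44.6 to 55.4%) and 23.2% of NTS (20.3 to 26.2%). Without cluster 10 both stayed higher in TS, against 8.47% of NTS cells with Mkx and 31.96% with Tnmd. Cells that should lack the genes gave a background: at the same depth T cell-like cells showed Scx in 1.62% of TS and none of 352 NTS cells (up to 0.852%), Mkx in 0.539% of TS and none of NTS, and Tnmd in 0.809% of TS and 0.852% of NTS. Their median depth was 3954 UMIs in TS and 5376 in NTS. In neutrophil-like and macrophage-like cells of either library no share passed 1.42%. Summed levels in some small TS classes were higher. Mast or basophil-like cells (68) had Scx at 19.8 CPM from 4 UMIs and Tnmd at 54.5 CPM from 11 UMIs. Scx was at 12.7 CPM in 58 keratinocyte-like and 11.4 CPM in 119 mural-like cells, but at 0 UMIs in B cell-like, blood endothelial-like and adipocyte-like cells. Whether low stromal Scx, as in TS clusters 8, 11 and 13 (10.6 to 11.2 CPM), exceeds background was not tested. Mkx outside the tenocyte-like class, at 0.726% of TS and 0.760% of NTS stromal cells, lay within the interval of TS T cell-like cells (0.0653 to 1.93%) and above macrophage-like cells, with none of 1105 in TS (up to 0.271%) and 0.0828% in NTS.

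**Figure D3:**
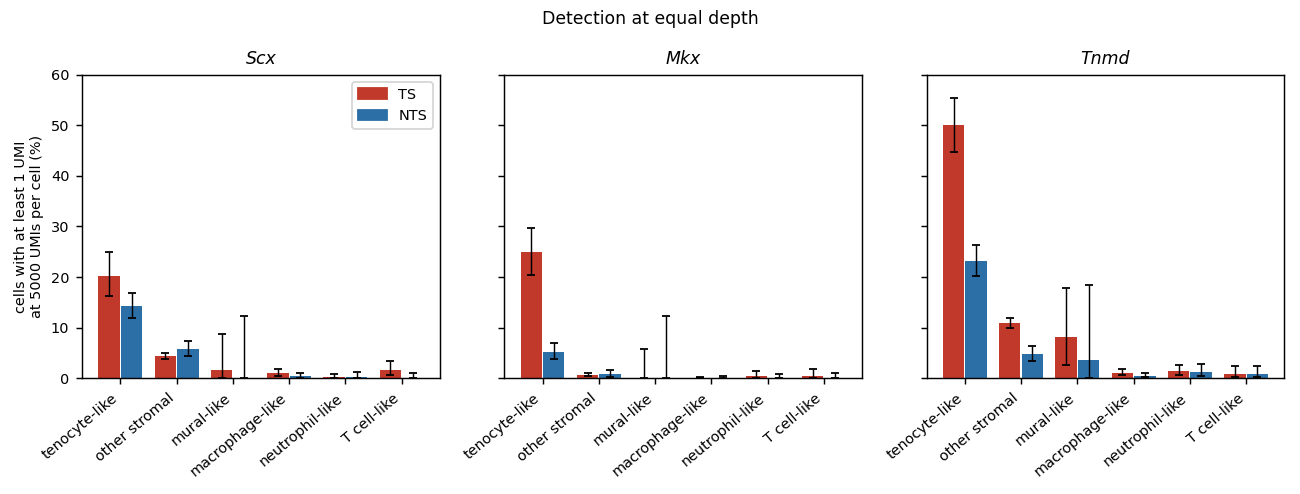
Share of cells with at least 1 UMI (vertical axis, percent) of Scx, Mkx and Tnmd after thinning to 5000 UMIs per cell, with TS left of NTS in 6 cell classes, cluster 10 counted among the tenocyte-like cells; lines are 95% exact binomial intervals. Tenocyte-like cells stand at 20.3% for Scx and 24.9% for Mkx in TS, with Tnmd in 175 of 350 cells, and at 14.3%, 5.26% and 23.2% in NTS. The macrophage-like, neutrophil-like and T cell-like classes stay at or below 1.62%.

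The counts per cell had different forms in the libraries. Of the tenocyte-like cells, unthinned, 61 of 595 in TS (10.3%) and 130 of 813 in NTS (15.99%) held at least 10 Tnmd UMIs, while 49.4% of TS and 68.6% of NTS cells held none. Cells with 2 to 4 Tnmd UMIs were 18.2% in TS and 5.78% in NTS. For Scx, 10 or more UMIs were seen in 3 TS cells and in 12 NTS cells. These counts also move with depth.

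Over the tenocyte-like class, detection of Tnmd went with detection of Scx and of Mkx. In tenocyte-like cells at 5000 UMIs, Scx and Tnmd were found together in 48 of 350 TS cells (13.7%), 1.35 times the product of their shares (1.01 to 1.75), and in 54 of 799 NTS cells (6.76%), 2.05 times the product (1.55 to 2.64). Mkx and Tnmd were together in 57 TS cells (16.3%; 1.31 times, 1.01 to 1.66) and 18 NTS cells (2.25%; 1.85 times, 1.10 to 2.91). Scx and Mkx, the pair of transcription factors, were together in 20 TS cells (5.71%) and 9 NTS cells (1.13%), and the ratio had intervals that held 1 in both, at 1.13 (0.70 to 1.72) in TS and 1.50 (0.69 to 2.84) in NTS. When the product was taken within each cluster, the NTS ratios were 1.33 for Scx and Tnmd, 1.14 for Mkx and Tnmd and 0.829 for Scx and Mkx, while those of TS for the same pairs were 1.35, 1.32 and 1.16. The NTS ratios were thus lower within clusters than over the class. Without cluster 10 the NTS ratios over the class were 1.596 for Scx and Tnmd, 1.52 for Mkx and Tnmd and 1.06 for Scx and Mkx.

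Levels of Tnmd were higher in cells with Scx. Tenocyte-like cells with a Scx UMI had Tnmd at 749 CPM in TS (71 cells) and 723 CPM in NTS (114 cells). Those without had 394 CPM in TS (279 cells) and 169 CPM in NTS (685 cells). Without cluster 10 the NTS levels of Tnmd were 806 CPM with Scx (100 cells) and 275 CPM without (313 cells). Single clusters had the same order: in TS cluster 3 Tnmd was at 691 CPM in cells with Scx (603 to 788) and 391 CPM in those without (358 to 426), and in NTS cluster 14 at 354 CPM with Scx (297 to 418) and 184 CPM without (162 to 207). For Scx in cells with and without Mkx no difference was separable, with overlapping intervals in both libraries. Scx was at 55.2 CPM in TS cells with Mkx and 53.2 CPM in TS cells without. In NTS it was at 57.1 CPM in the 42 cells with Mkx (29.5 to 99.8) and 38.6 CPM in those without. Without cluster 10 these NTS levels were 68.6 and 69.3 CPM. Of the cells with Scx, 67.6% in TS and 47.4% in NTS had a Tnmd UMI, and of those without Scx 45.5% in TS and 19.1% in NTS. A cell with no Tnmd UMI at this depth is not shown to lack it. All 3 genes were seen in 14 TS cells (2.20 to 6.62%) and 7 NTS cells (0.353 to 1.80%), and none in 36.6% of TS and 66.6% of NTS cells. Scx and Sox9, the pair of embryonic enthesis progenitors, were together in 24 TS cells and 27 NTS cells, at 0.85 (0.55 to 1.24) times the product in TS and 1.14 (0.76 to 1.65) times in NTS.

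**Figure D4:**
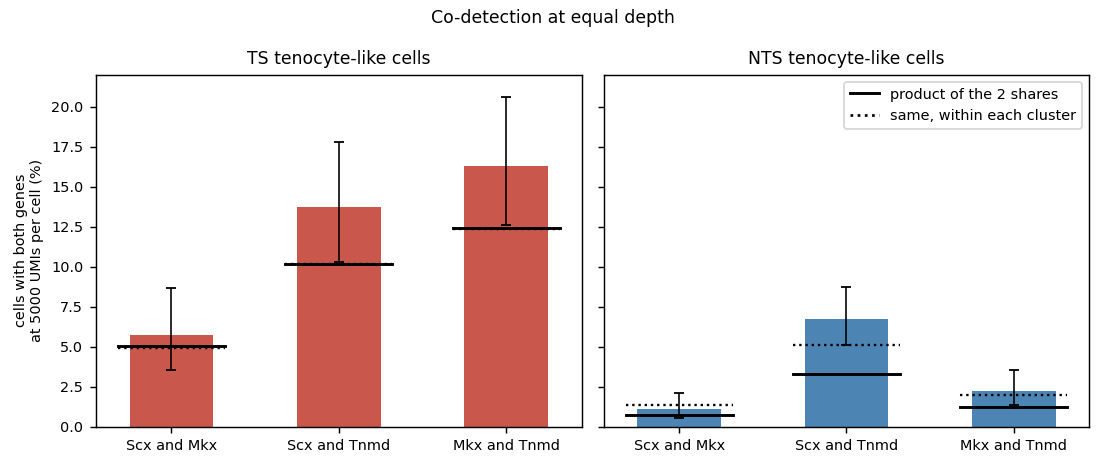
Percent of tenocyte-like cells (vertical axis) in which both genes of a pair had a UMI at 5000 UMIs per cell, TS on the left and NTS on the right; error lines are 95% exact binomial intervals, solid lines the product of the single shares and dotted lines that product taken within each cluster. The 3 TS bars stand at 5.71%, 13.7% and 16.3%, and in NTS the dotted line lies above the solid one for each pair.

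Across 23 points (17 TS and 6 NTS clusters of at least 50 cells) the log levels of the members were alike to different degrees, with Pearson's r of 0.70 for Mkx and Tnmd, 0.59 for Scx and Mkx and 0.43 for Scx and Tnmd. The points share 2 libraries, so r is a description. Among 12229 genes, those most like Scx were Ltbp2 (a matrix protein of the latent TGF-beta binding protein family, r = 0.88), Rab27b (0.87), Enpp1 (0.87), Bmpr1b (0.86) and Nudt11 (0.85). Those most like Mkx were Col2a1 (0.92), Chad (chondroadherin, 0.92), Cilp2 (0.92), Chil1 (0.91) and Galr2 (a galanin receptor, 0.91). These rested on the TS cells of cluster 3: over the other 22 points r fell to 0.68 for Col2a1, 0.65 for Chad, 0.69 for Cilp2, 0.66 for Chil1 and 0.79 for Galr2, against 0.77 for Tnmd. Those most like Tnmd were Itpkb (0.85), Egfl6 (0.84), Nuak1 (0.83), Ptprd (0.81) and Zfp185 (0.81). No gene was among the 5 nearest of 2 members.

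The tendon matrix genes, many of them known targets of Scx or Mkx in mice, were mostly lower in TS in the sum and in cluster 3. In the tenocyte-like class this depended on whether cluster 10 was counted. Summed over stromal cells 26 of 28 were lower in TS and 2 higher, with a median log2 ratio of -0.80, where 56.3% of all genes were higher, and Cpxm2 (-3.59) and Col11a1 (-2.23) lay lowest while Chodl (1.62) and Dcn (0.17) lay highest. In tenocyte-like cells 14 were lower and 14 higher, 8 each by 2-fold, with a median of -0.02 against -0.05 for all genes. Of all genes in that class 11.8% were lower and 10.2% higher by 2-fold. Without cluster 10, 18 were lower and 10 higher, with a median of -0.40 against -0.04. By 2-fold 9 were then lower and 3 higher, where 10.2% of all genes were lower and 9.44% higher. In tenocyte-like cells Fmod was at 3465 CPM in TS and 1523 CPM in NTS (1.19, or 0.38 without cluster 10). Col1a1, the main tendon collagen, was at 7791 CPM in TS and 18578 CPM in NTS (-1.25). In cluster 3 again 26 of 28 were lower, 18 of them by 2-fold, with a median of -1.17 against 0.15. Of all genes in that cluster 58.6% were higher, and by 2-fold 5.76% were lower and 13.2% higher. Col1a1 was there at 5668 CPM in TS and 22825 CPM in NTS (-2.01), and Thbs4 at 3924 CPM in TS and 10567 CPM in NTS (-1.43). Several of these genes also named the clusters, so their counts are not independent of the cells chosen.

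Partners of Scx had no common direction. The list held the E proteins (Tcf3, Tcf4, Tcf12) with which Scx forms dimers, the Id proteins that bind E proteins without binding DNA, and other helix-loop-helix factors. In stromal cells 6 of 10 were higher in TS, close to the 56.3% of all genes, with a median of 0.39 and none past 2-fold; Id4 (0.99) and Id2 (0.60) lay highest and Id3 (-0.35) and Tcf3 (-0.27) lowest. In tenocyte-like cells 5 of 9 were higher, where 47.1% of all genes were, with a median of 0.71 (0.02 without cluster 10), and Id2 was at 250.0 CPM in TS and 60.5 CPM in NTS (2.05), while Twist2 (-1.15) and Tcf3 (-0.88) lay lowest. In cluster 3 the list was divided 4 and 4, with a median of 0.00.

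Among other regulators of tendon, 8 of 11 were lower in TS stromal cells (median -0.35), where 56.3% of all genes were higher (median 0.09). Nfatc4 was at 24.1 CPM in TS and 46.2 CPM in NTS (-0.94), Six2 had a log2 ratio of -1.08, and Egr1, a mechanically responsive zinc finger factor, 0.11. In tenocyte-like cells 8 of 10 were lower (median -0.28), where 47.1% of all genes were higher, with Eya2 at -1.16 and Nfatc4 at -1.07 lowest. Six2 had a log2 ratio of 0.52 there and -0.07 without cluster 10. Of the growth factor signals, 6 of 11 were higher in TS stromal cells (median 0.00), close to the share over all genes, with Bmp4 at 24.2 CPM in TS and 9.46 CPM in NTS (1.36) and Gdf5, a joint and enthesis growth factor, at 0.45 CPM in TS and 4.57 CPM in NTS (-3.34). In tenocyte-like cells 9 of 11 were higher (median 0.58), against 47.1% of all genes, and 7 of 11 without cluster 10 (median 0.30), but Tgfbr2, the type II TGF-beta receptor, was at 103 CPM in TS and 309.9 CPM in NTS (-1.59) and Igf1 at 452 CPM in TS and 1238 CPM in NTS (-1.45).

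Genes of other fates were higher in TS tenocyte-like cells in 6 of 8 measured, 5 of them by 2-fold, with a median of 1.40, where 47.1% of all genes were higher, 10.2% by 2-fold, with a median of -0.05. Without cluster 10, 5 of 8 were higher, each by 2-fold, and 3 were lower, 1 of them by 2-fold. Of all genes 47.2% were then higher, 9.44% by 2-fold, and 10.2% were lower by 2-fold. Bglap (osteocalcin) had 150 UMIs in TS and 13 in NTS (5.70), and Col2a1 was at 318 CPM in TS and 47.3 CPM in NTS (2.75). In cluster 3, 5 of 7 measured were higher, 4 of them by 2-fold, with a median of 1.12 against 0.15 for all genes. Of all genes there 58.6% were higher, 13.2% by 2-fold, and 5.76% were lower by 2-fold. The 2 lower genes of the list were Col2a1, at 354 CPM in TS and 771 CPM in NTS (-1.13), and Acan (aggrecan, -1.54). Bglap had 150 UMIs in TS and 0 in NTS in that cluster. Of the paralogs, Cnmd, the cartilage relative of Tnmd, had 81 UMIs in TS and 918 in NTS stromal cells (-4.47) but 5 in TS and 38 in NTS tenocyte-like cells (-0.76). Itm2a, which shares the BRICHOS domain with Tnmd, was at 114 CPM in TS and 602 CPM in NTS tenocyte-like cells (-2.40), against the higher Tnmd of TS. Itm2b (-0.25) and Itm2c (-0.43) differed less. The Irx genes, homeobox relatives of Mkx, had no common direction there: Irx1 had 2 UMIs in TS and 177 in NTS, Irx2 1 in TS and 52 in NTS, and Irx3 75 in TS and 160 in NTS (1.08), and Irx5 had a log2 ratio of -0.19. Tcf15, the close relative of Scx, had 23 UMIs in TS and 7 in NTS stromal cells.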

How the data were processed

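The authors deposited a matrix of raw UMI counts for each library. Cell Ranger 5.0.1 and GRCm38 are listed in the submitters' processing notes. Every barcode has at least 500 UMIs. A barcode was kept as a cell if it had 300 genes or more and if no more than 20% of its UMIs were mitochondrial (14483 TS, 10947 NTS). Scrublet scores over 0.4 marked 467 TS (3.22%) and 128 NTS cells (1.17%) as doublets; these were removed. The threshold was set after its automatic value marked 492 TS and 0 NTS cells, and both shares are below the 12.4% (TS) and 9.14% (NTS) expected from loading, so doublets may remain.

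Both libraries were clustered together with scanpy 1.11.5, without integration: 2000 variable genes without the 3 members, 30 principal components, 15 neighbours, Leiden resolution 1.0. Stromal clusters (Col1a1 plus Dcn over 5000 CPM, Ptprc at most 100 CPM) were clustered again. A name needed at least 2 markers of a class among the top 10 genes by fold and 3 among the top 50, with no other class level; 486 TS and 310 NTS cells of clusters led by another cell type were left out. These rules, and the score of markers per cell (mean z score, threshold 0.5), were set after seeing the data. The members and lists were chosen with earlier results of these data known.

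UMIs were summed per class and library and divided by their total (CPM). Intervals are exact Poisson, Clopper-Pearson and conditional binomial at 95%, for counting error only; a count of 0 is given the limit of 3 counts. With 1 library per group no test was made. Thinning drew 5000 UMIs per cell without replacement, leaving out shallower cells. Named genes were the members, the 5 most alike by log2(CPM + 10) among genes with at least 200 stromal UMIs, and per list the 2 highest and 2 lowest with at least 20 UMIs, with all measured paralogs (1 gene under this rule is not reported here); the other genes named in cluster 3 and Fmod, Thbs4 and Col1a1 were chosen after their values were seen. Cluster comparisons and the finer clustering (resolution 2.0) were also read after the pooled values. Calculations were tested on simulated data. Sequences of the members were not used here.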

Additional observations from a re-analysis of the deposited data

Results flagged for a closer look

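Scx and Tnmd differed between TS and NTS in opposite directions in different clusters; the difference between clusters was not tested. The log2 ratio of Tnmd was -2.12 in cluster 3 (565 TS, 46 NTS cells) and 1.80 in cluster 14 (28 TS, 376 NTS cells). For Scx it was -3.18 in cluster 17, from 5 TS and 9 NTS UMIs in shallow cells, and 1.39 in cluster 14; in cluster 3, with more UMIs, it was -1.97.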

How the results depend on the processing

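Of 179 values under alternative settings, 132 stayed within the first value's counting interval, 40 moved beyond it and 7 changed sign or side. Without cluster 10, a setting chosen after seeing the data, tenocyte-like log2 ratios were -0.28 (Scx), 1.72 (Mkx) and 0.45 (Tnmd), stromal ones -1.13 (Scx) and -0.58 (Tnmd), and the NTS shares 24.2% (Scx), 8.47% (Mkx) and 31.96% (Tnmd). With each cell weighted equally, stromal log2 ratios were -1.05 (Scx), 0.52 (Mkx) and -0.35 (Tnmd), and tenocyte-like ones 2.67 (Mkx) and 0.86 (Tnmd). Thinned to 5000 UMIs, stromal Mkx was 0.045 and Tnmd -0.44, and tenocyte-like Tnmd 0.91. The per-cell marker score gave -0.0058 (Scx) and 1.59 (Mkx), and resolution 2.0 gave 1.95 (Mkx) and 0.93 (Tnmd) in tenocyte-like cells. Mkx in cluster 3 became 0.12 with equal weights and 0.33 when thinned; cluster settings were chosen after seeing the data. The cause of these shifts was not tested.

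Shares of tenocyte-like cells change with depth by construction. At 2000 UMIs they were 11.1% (Scx), 13.02% (Mkx) and 37.4% (Tnmd) in TS, and 6.17%, 1.85% and 17.4% in NTS. At 10000 UMIs they were 31.8% (Scx) and 55.8% (Tnmd) in TS, and 22.6% (Scx) and 9.62% (Mkx) in NTS. Without thinning Mkx was at 29.7% in TS, and Scx, Mkx and Tnmd at 36.2%, 18.1% and 31.4% in NTS. With at least 2 UMIs required, TS had 9.08% (Scx), 10.6% (Mkx) and 37.8% (Tnmd), and NTS 20.7% (Scx) and 26.8% (Tnmd). The NTS co-detection ratio of Mkx and Tnmd was 3.83 at 2000 UMIs, and that of Scx and Tnmd 1.42 without thinning, 1.52 with the score and 1.33 within clusters. Scx and Mkx gave 0.829 within clusters.

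No paired analysis was possible because each group has 1 library. Counting error limits Mkx most, and differences between animals cannot be told apart from the treatment.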
